A study of Caenorhabditis elegans with 5 samples.

Results

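Heterochronic genes are the regulators that tell the cells of a *C. elegans* larva which stage they are in. The set described here holds 9 of them, *lin-14*, *lin-28*, *hbl-1*, *lin-46*, *lin-41*, *lin-29*, *mab-10*, *lin-42* and *blmp-1*, chosen by gene symbol as larval timing regulators, out of 25393 genes listed. All 9 were found by their WormBase identifiers, and 8 of them reached the level at which genes were tested, as did 8325 genes in all. The ninth, *lin-46*, did not.

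Whole animals of the wild-type strain N2 were synchronized by arrest as newly hatched larvae and grown on agar seeded with *E. coli* HT115. The agar held 400 µM citrate, the control, in 2 libraries, or 400 µM tamoxifen, an estrogen receptor modulator used against breast cancer, in 3 libraries. All are labelled 48 h and L4, the last larval stage, and each was made from RNA of pooled staged animals. The study's text states that animals given tamoxifen lagged by about 12 h, with their development followed hourly. They were collected 12 h after the controls, so that a different pace of development would not show as mRNA changes. Whether the stages matched was not tested here. Treatment and collection time cannot be told apart in any library. RNA was measured by Cel-seq2, which counts tags near the poly(A) end of each mRNA. Values are tag counts scaled to the same total in each library (CPM), and no gene length enters them. The study describes biological replicates.

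In the larva, the pathway works as a relay. Early regulators (*lin-14*, *lin-28*, *hbl-1*) keep cells in early programmes until the microRNAs *lin-4* and *let-7* and relatives of *let-7* shut them down. Late in larval life *let-7* also lowers LIN-41, an RNA-binding protein that holds back *lin-29* and *mab-10*, and LIN-29 with its cofactor MAB-10 then ends the molting cycle and starts the adult programme in the skin. *lin-42*, the worm relative of the clock gene Period, and *blmp-1*, which encodes a zinc finger transcription factor, act across stages and are tied to the molting cycle. *lin-41* has a separate role in the germline, where its protein is made in growing oocytes.

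Depth ran from 1782371 tags in tamoxifen replicate 3 to 38276144 in tamoxifen replicate 2, a range of 21.5-fold, so that 1 tag was worth from 0.0261 to 0.561 CPM. The labelled whole animal held transcripts of skin, oocytes, sperm and yolk-producing gut in every library. Summed over 13 oocyte markers, the citrate libraries had 3542 and 5999 CPM, and the tamoxifen libraries 10453 to 11125. For 6 yolk protein genes, which are turned on in the gut of adult hermaphrodites, it was 1343 and 2128 CPM in citrate and 3315 to 4866 in tamoxifen. For 10 sperm markers the sums were 450 and 618 CPM in citrate and 221 to 368 in tamoxifen, and none of the 6 that were tested passed the threshold used below. Of 9 markers of seam cells and skin, 4 were tested, and *nhr-73* was at 0 tags in every library. The citrate libraries differed from each other in the same direction as tamoxifen differed from citrate for the oocyte and yolk lists, a comparison that shares these controls. For the 6 tested sperm markers the medians had opposite directions. The median of these markers was 0.45 in log2 for citrate replicate 2 minus replicate 1 and -1.14 for tamoxifen minus citrate, with *fog-1* alone above 0 in the latter (1.17). Of single markers, *fog-1* was higher and *gsp-3* lower in both comparisons. Intervals on single values below are exact 95% Poisson intervals and cover counting error only.

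None of the 8 tested heterochronic genes passed the threshold in limma, with Benjamini-Hochberg adjustment over all 8325 genes. The threshold takes its limits from the study, more than a 2-fold change and a p under 0.01, the latter applied here to the adjusted p. The background was 4.66% of all tested genes called higher and 2.76% called lower, or 1.71% and 3.24% after median-of-ratios scaling. By the same fit 4 of the 8 had an unadjusted p under 0.05, against 44.5% of all tested genes, so the share among the timing genes was near that of any gene. With edgeR on the recovered tags 0 passed, and with DESeq2 1 passed, *lin-29*, which was lower. The median log2 fold change of the 8 genes was -0.39, with 7 below 0 and *lin-41* above, while the median of all tested genes was 0.24. In the tamoxifen libraries *lin-29*, *blmp-1* and *lin-14* lay below both citrate values and *lin-41* lay above both. That is 3 of 8 genes without overlap on the lower side, where 20.8% of all tested genes fell, and 1 of 8 on the higher side, where 39.4% did. For a single gene, the smallest p that exact permutation of 2 and 3 libraries can give is 0.1. In RNA of whole animals, fewer cells of a type and less RNA per cell cannot be told apart.

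**Figure D1:**
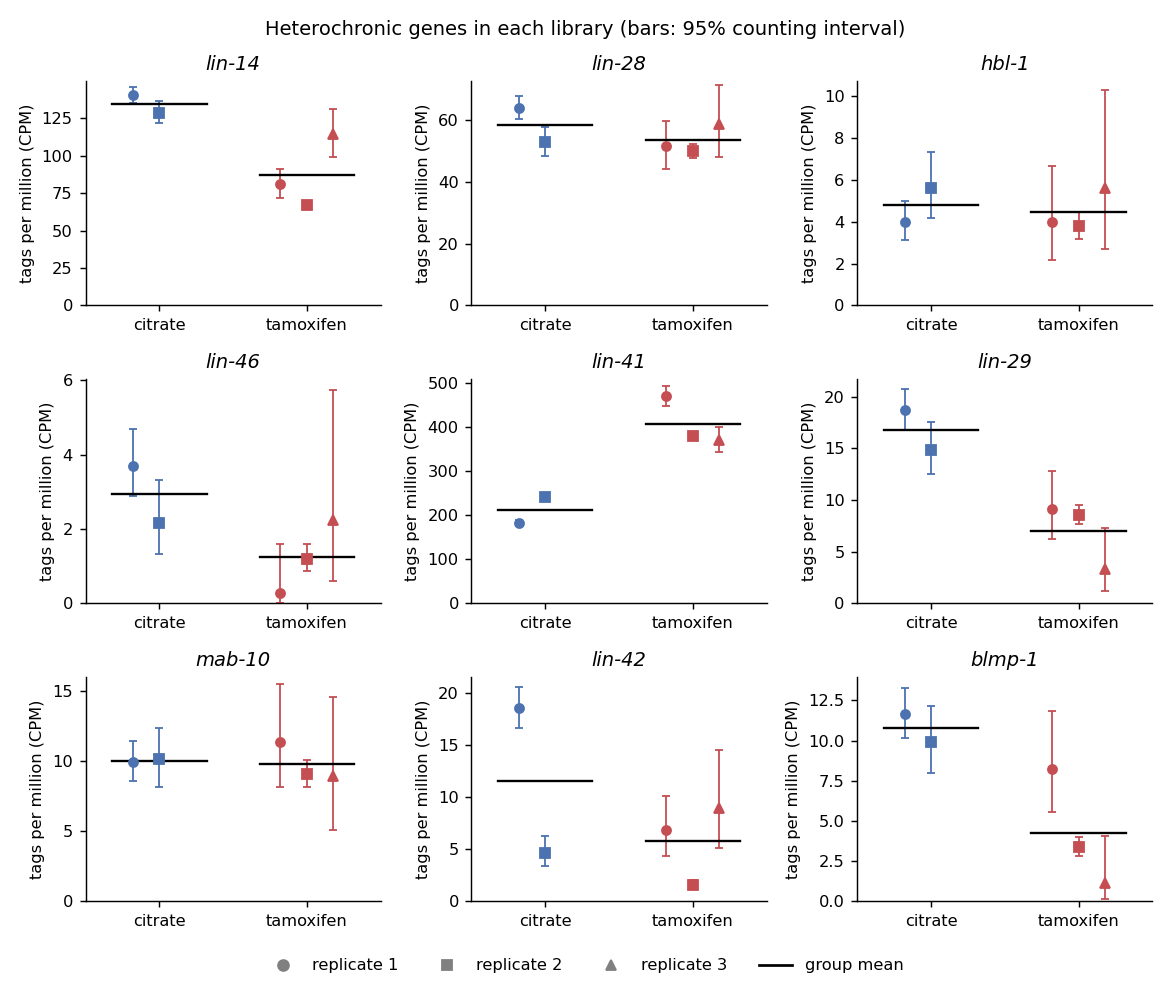
Level (CPM, linear axis from 0) of the 9 heterochronic genes in each library, with citrate in blue and tamoxifen in red. Symbols mark the replicate, bars the 95% counting interval and black lines the group mean. *lin-29*, *blmp-1* and *lin-14* are lower and *lin-41* is higher in all 3 tamoxifen libraries than in both citrate libraries, while the groups overlap for the other 5 genes.

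Of the early regulators, *lin-14* encodes the DNA-binding protein that sets the programme of the youngest larvae and is the classic target of the microRNA *lin-4*. The gene lies on chromosome X, from 11465560 to 11485871 (positions here and below are those of Ensembl release 115, WBcel235). In citrate it was at 140 and 129 CPM, and in tamoxifen replicates 1, 2 and 3 at 81.1, 66.8 and 114. All tamoxifen values were lower than both citrate values, although that of tamoxifen replicate 3 was 0.889 times the lower citrate value and its counting interval (99.3 to 131 CPM) reached it. The log2 fold change was -0.65 (standard error, SE, 0.29 and adjusted p = 0.102 in limma), or -0.89 once the median over tested genes is taken off. It was -0.91 in DESeq2 (adjusted p = 0.0154), still under a 2-fold change.

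*lin-28* encodes an RNA-binding protein that blocks the maturation of *let-7*. It lies on chromosome I, from 8407630 to 8410804. Its level was 64.1 and 53.0 CPM in citrate and 51.5, 50.1 and 58.9 in tamoxifen. The groups overlapped, with tamoxifen replicate 3 between the citrate values, and the log2 fold change was -0.13 (SE 0.28, adjusted p = 0.755 in limma). The 95% interval of that change ran from -0.73 to 0.48, so a change of more than 2-fold either way lay outside it on the deposited scale. Within each library, the ratio of *lin-14* tags to *lin-28* tags, which does not depend on scaling, was 2.19 and 2.43 in citrate and 1.57, 1.33 and 1.94 in tamoxifen. It was lower in all 3 tamoxifen libraries. This ratio was chosen after the values were seen and was not tested.

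*hbl-1*, a relative of the fly gene hunchback, encodes a zinc finger protein that acts with LIN-28 in the young larva. It lies on chromosome X, from 5822142 to 5827755, and was close to the level needed for testing, with 3.97 and 5.60 CPM in citrate and 3.99, 3.79 and 5.61 in tamoxifen. These values rest on 10 to 145 tags per library, and the groups overlapped fully. Its log2 fold change was -0.08 (SE 0.40, adjusted p = 0.886 in limma), with a 95% interval from -0.94 to 0.78. *lin-46* encodes a gephyrin-related protein that opposes HBL-1 and is itself held down by LIN-28. The gene, on chromosome V from 12968855 to 12970730, was below the level tested, with 3.71 and 2.16 CPM in citrate and 0.285, 1.2 and 2.24 in tamoxifen. Tamoxifen replicate 1 held a single tag of it (1 tag, interval 0.00721 to 1.59 CPM) and tamoxifen replicate 3 held 4 tags (interval 0.611 to 5.75 CPM). The groups overlapped, and the difference in mean log2(CPM + 1) of -0.88 had a two-sided exact permutation p of 0.3, from all 10 ways to label the libraries. The smallest p this test can give is 0.1, so it could not fall under 0.05 at any depth. Tamoxifen replicate 2, the deepest library, held 46 tags (interval 0.88 to 1.6 CPM), below the interval of citrate replicate 1 (2.89 to 4.68 CPM). Its interval overlapped that of citrate replicate 2 (1.32 to 3.33 CPM), as did the interval of the shallow tamoxifen replicate 3.

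Among the late regulators, *lin-41* was the only one of the 8 tested genes with a higher mean in tamoxifen. It encodes the TRIM-NHL RNA-binding protein through which *let-7* controls the larva-to-adult switch, and lies on chromosome I from 9334800 to 9342496. It had 183 and 242 CPM in citrate and 471, 381 and 371 CPM in tamoxifen, and the lowest tamoxifen value was 1.54 times the higher citrate value. The order was thus citrate replicate 1, citrate replicate 2 and then the tamoxifen libraries, of which replicates 2 and 3 did not differ beyond their counting intervals. The group means of 212 ± 41.5 (SD, n = 2) and 408 ± 54.7 CPM (SD, n = 3) differ by a ratio of 1.92. In log2(CPM + 1) units this is a change of 0.94 (SE 0.25, adjusted p = 0.0159 in limma), 0.70 once the median over tested genes is taken off. It missed both limits of the threshold. It passed in 1 of 16 other fits, with the replicate block, where the log2 fold change was 1.01 (adjusted p = 0.00237 in limma). That fit, in which the estimate rests on replicates 1 and 2 alone, called 12.5% of all tested genes higher. Over the 16 other fits the adjusted p ran from 0.00237 to 0.151. Against citrate replicate 2 alone, the change was 0.74, and against citrate replicate 1 alone it was 1.14.

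The oocyte markers moved in the same libraries. All 13 were higher in tamoxifen, 11 of them past the threshold, with a median log2 fold change of 1.58, and citrate replicate 2 exceeded citrate replicate 1 in all 13, with a median difference of 1.05. Log2 fold changes of *egg-2*, *oma-2*, *rme-2* and *egg-1*, the largest 4 of that list, were 2.15, 1.93, 1.86 and 1.84 (adjusted p = 0.00118, 0.0025, 0.00353 and 0.00342 in limma). *egg-1* and *egg-2* encode surface proteins of the egg, *oma-2* a zinc finger protein of maturing oocytes and *rme-2* the oocyte's yolk receptor. Without citrate replicate 1 the log2 fold changes of these 4 were 1.24 to 1.80. Without tamoxifen replicate 1 *egg-2* alone of the 4 passed (the others 1.79 to 1.96, adjusted p = 0.0129 to 0.0189 in limma). That fit called 0.264% of all tested genes higher. Without tamoxifen replicate 3 *rme-2* missed at 1.76 (adjusted p = 0.011 in limma), where 0.697% of all tested genes were called higher. For *lin-41* the difference between the citrate libraries was 0.40. Its level amounted to 5.17% and 4.03% of the summed level of the 13 oocyte markers in the citrate libraries and to 4.50%, 3.60% and 3.34% in tamoxifen. Thus *lin-41* and that sum did not keep a fixed proportion. The sum is weighted to *perm-2* and *cbd-1*, which had 1651 and 570 of its 3542 CPM in citrate replicate 1. The part of oocyte RNA in the *lin-41* result was not tested, and the oocyte list was chosen with earlier results of these data known.

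*lin-29* lies at the end of the relay and encodes the zinc finger transcription factor that triggers the larva-to-adult switch in the skin. Its position is chromosome II, from 11917642 to 11935343. It had 18.7 and 14.9 CPM in citrate and 9.11, 8.57 and 3.37 CPM in tamoxifen. Every tamoxifen value was below both citrate values, and the highest was 0.612 times the lower citrate value. The value in tamoxifen replicate 3 rests on 6 tags (interval 1.24 to 7.33 CPM), against 328 tags in tamoxifen replicate 2. The means were 16.8 ± 2.70 (SD, n = 2) and 7.01 ± 3.17 CPM (SD, n = 3), a ratio of 0.418. The log2 fold change was -1.24 (SE 0.41, adjusted p = 0.0362 in limma), which exceeded a 2-fold change and missed the required p. *lin-29* passed in DESeq2 on the recovered tags, at -1.45 (adjusted p = 0.00982), where 9.37% of all tested genes were called lower. It also passed with limma at an adjusted p under 0.05, as 8.14% of genes did on the lower side. In edgeR the change was -1.40 (adjusted p = 0.0231). Over 15 other fits the log2 fold change ran from -1.45 to -0.85 and the adjusted p from 0.00982 to 0.279, and *lin-29* was under 0.05 in 9. The value nearest 0 was that without tamoxifen replicate 3, the shallowest library (adjusted p = 0.091), and the highest p that without citrate replicate 1 (-1.08). The 3′ end of *lin-29* meets that of the opposite-strand gene *hmg-12*, with an annotated overlap of 2 bases. *hmg-12* had 417 and 577 CPM in citrate and 728 to 982 in tamoxifen, the opposite direction to *lin-29*.

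*mab-10* encodes the NAB-type cofactor that binds LIN-29. It lies on chromosome II from 10528084 to 10534380 and differed least of all the timing genes. It had 9.96 and 10.1 CPM in citrate and 11.4, 9.12 and 8.98 in tamoxifen, with citrate inside the range of tamoxifen. The log2 fold change was -0.04 (SE 0.34, adjusted p = 0.943 in limma), with a 95% interval from -0.75 to 0.68. It overlaps the opposite-strand gene *R166.2* by 49 bases at its 3′ end, and *lin-28* overlaps *F02E9.1* by 16 bases at its own. Whether the counting used strand is not given in the sources used here. LIN-41 is known to hold back both *lin-29* and *mab-10*, and their mRNAs stood differently against *lin-41*. The ratio of *lin-41* to *lin-29* tags was 9.79 and 16.2 in citrate and 51.7, 44.5 and 110 in tamoxifen, while that of *lin-41* to *mab-10* was 18.4 and 23.9 in citrate and 41.3, 41.8 and 41.4 in tamoxifen. Both ratios were higher in every tamoxifen library than in either citrate library. The ratio of *mab-10* to *lin-29* tags was 0.533 and 0.681 in citrate and 1.25, 1.06 and 2.67 in tamoxifen. It was below 1 in both citrate libraries and above 1 in all 3 tamoxifen libraries. The tags there were 40 against 32, 349 against 328 and 16 against 6 in replicates 1, 2 and 3. In each tamoxifen library the counting intervals of *mab-10* and *lin-29* overlapped. These ratios do not depend on the scaling of the libraries. They were chosen after the values were seen and were not tested.

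**Figure D2:**
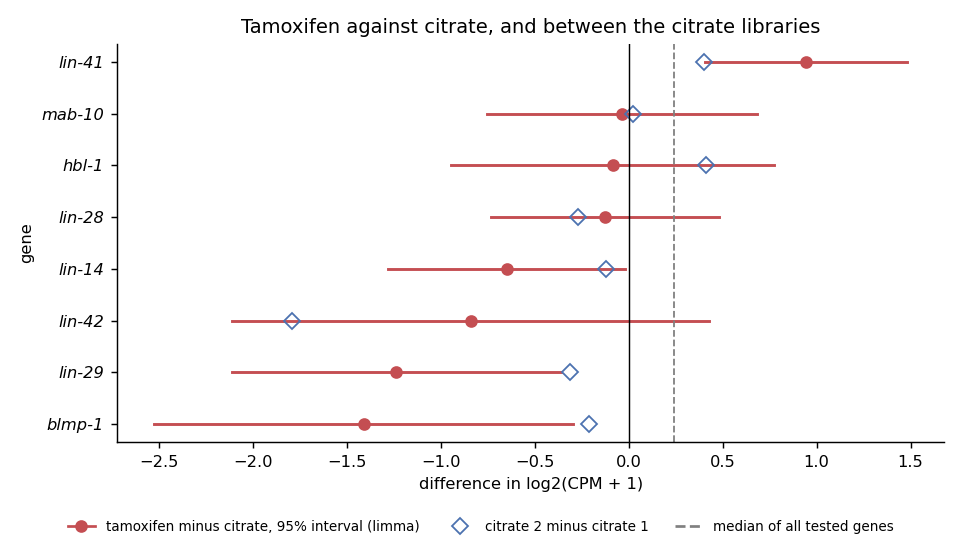
Differences in log2(CPM + 1) for the 8 tested heterochronic genes, with tamoxifen minus citrate as red points and their 95% limma intervals as lines, and citrate replicate 2 minus citrate replicate 1 as blue diamonds. The dashed line is the median of all tested genes, 0.24. The intervals of *lin-29*, *blmp-1*, *lin-14* and *lin-41* do not cross 0, and for *lin-42* the citrate libraries differ by -1.79, more than the groups do.

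*blmp-1* encodes the worm relative of BLIMP1, a transcription factor that shapes the timing of molting-cycle genes and is removed by the DRE-1 ubiquitin ligase. The gene lies on chromosome I from 10409302 to 10414773. It had 11.7 and 9.92 CPM in citrate and 8.26, 3.40 and 1.12 CPM in tamoxifen, all 3 below both citrate values. The tamoxifen libraries were far apart, and the lowest value is 2 tags (interval 0.136 to 4.05 CPM). Its log2 fold change came to -1.41 (SE 0.52, adjusted p = 0.0535 in limma), the largest in size among the 8 genes. Without tamoxifen replicate 3 it was -0.88 (adjusted p = 0.124 in limma), and without tamoxifen replicate 1 it was -1.94 (adjusted p = 0.0224 in limma). In residual spread *blmp-1* stood near the top, with 2.35% of tested genes more variable within groups.

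For *lin-42*, the worm Period relative, the citrate libraries differed by more than the group means did, and the replicate 1 and 2 libraries of each group stood apart in the same direction. The gene, on chromosome II from 1233236 to 1252359, had 18.5 CPM in citrate replicate 1 and 4.63 in citrate replicate 2, a 4.0-fold difference between controls. In tamoxifen it had 6.83, 1.57 and 8.98 CPM. The groups overlapped, and the values rest on 16 to 350 tags per library. On average tamoxifen was lower by a log2 fold change of -0.84 (SE 0.59, adjusted p = 0.283 in limma). Against citrate replicate 1 alone the change was -1.74, and against citrate replicate 2 alone it was 0.06. The titles number the libraries but do not state that same-numbered ones are pairs. Between same-numbered libraries *lin-42* was lower in tamoxifen both times (18.5 against 6.83 and 4.63 against 1.57 CPM). With the replicate block, whose estimate uses these 4 libraries and not tamoxifen replicate 3 (8.98 CPM), the change was -1.23 (adjusted p = 0.0114 in limma). It was -1.57 in edgeR (adjusted p = 0.0977), -1.43 in DESeq2 (adjusted p = 0.0985), -0.55 in limma with a pseudocount of 5 (adjusted p = 0.25) and -0.25 without tamoxifen replicate 2 (adjusted p = 0.745). It passed the threshold in none of these fits. Only 0.769% of tested genes differed more between the 2 citrate libraries, and 1.02% were more variable within groups.

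*lin-42* was lower in citrate replicate 2 than replicate 1, and in tamoxifen it was lowest in replicate 2. This order was shared by 1 of the 2 tested molt genes and by 3 of the 4 tested adult cuticle genes, against 19.3% of all tested genes. With genes below the level tested included, it was shared by 5 of 10 molt and 4 of 6 cuticle genes. Among the tested cuticle genes with this order, *col-7* held 3, 18 and 1 tags in tamoxifen replicates 1, 2 and 3. The cuticle collagen gene *rol-1* had 65.9 and 14.1 CPM in citrate and 41.3, 4.42 and 60.0 in tamoxifen. *bli-6*, also a collagen gene, had 174 and 34.0 CPM in citrate and 72, 21.1 and 89.8 in tamoxifen. The molting gene *mlt-8* had 14.7 and 3.77 CPM in citrate and 8.82, 2.61 and 32 in tamoxifen, with its highest value in tamoxifen replicate 3 rather than citrate replicate 1. These genes were picked out of the lists after their values were seen. The other tested molt gene, *nas-37*, which encodes a protease of the molt, went the other way, with 4.55 and 7.65 CPM in citrate and 11.1, 20.7 and 10.7 in tamoxifen. The collagen gene *col-19* was also higher in citrate replicate 2 (671 and 883 CPM). The molt gene *noah-2*, at or under 1.17 CPM in each library, had 1 tag in tamoxifen replicate 3 and 21 in tamoxifen replicate 2, nearly the same level. By distance between log2 profiles centred on each gene's mean over the 5 libraries, the nearest genes to *lin-42* were *ZK180.5* (distance 0.27) and *B0348.2* (0.29). *B0348.2* had 14.1 and 2.80 CPM in citrate and 4.27, 0.549 and 5.05 in tamoxifen.

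**Figure D3:**
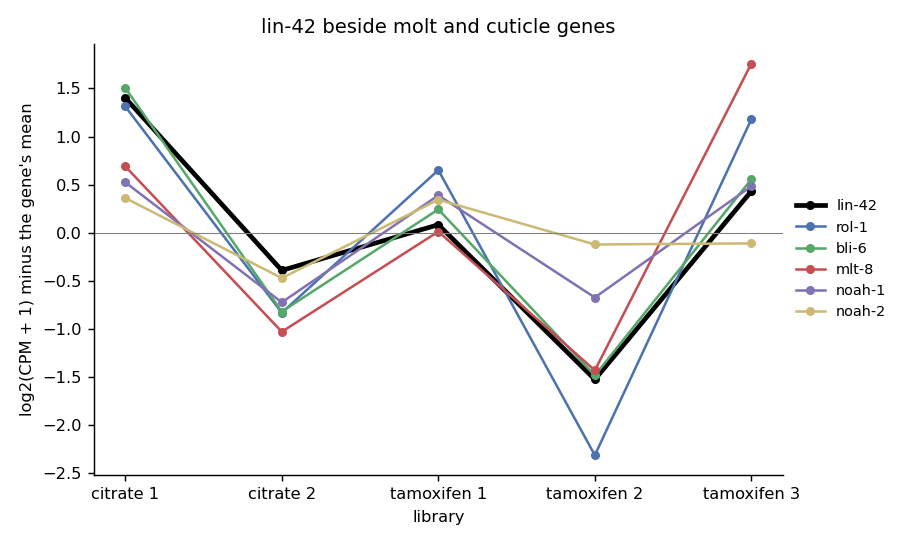
log2(CPM + 1) minus each gene's mean over the 5 libraries, for *lin-42* (black), the collagen genes *rol-1* and *bli-6* and the molt genes *mlt-8*, *noah-1* and *noah-2*. Lines only join the values of a gene, since replicates have no order. In both groups all 6 genes are lower in the replicate 2 library than in the replicate 1 library. This follows from the choice, since the genes beside *lin-42* were picked after their values were seen. *noah-1* and *noah-2* were below the level tested, and *noah-1* held 6 tags in citrate replicate 2 and 5 in tamoxifen replicate 3. The tested genes of these lists without this order, *nas-37* and *col-19*, are not drawn.

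The same measure gave close neighbours for the other timing genes. The profile of *lin-41* was nearest to those of *hal-2* (distance 0.065) and *xpb-1* (0.074), and that of *lin-29* to those of *suca-1* (0.081) and *ifc-1* (0.26). For *lin-14* these were *egl-10* (0.15) and *Y73C8B.3* (0.16), and for *blmp-1* they were *C26B2.2* (0.24) and *fipr-5* (0.28). The genes nearest to *lin-28* were *ndk-1* (0.074) and *F45G2.8* (0.081), to *hbl-1* *dohh-1* (0.12) and *tep-1* (0.13), and to *mab-10* *mrpl-48* (0.087) and *epg-3* (0.093). None of these 16 neighbours, those of *lin-42* included, passed the threshold. The members they were chosen to resemble did not pass either, so this largely follows from the choice. *suca-1* had 167 and 139 CPM in citrate and 85.7, 82.7 and 34.8 in tamoxifen. Its likeness to *lin-29* in each library, tamoxifen replicate 3 included, follows from how it was chosen.

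**Figure D4:**
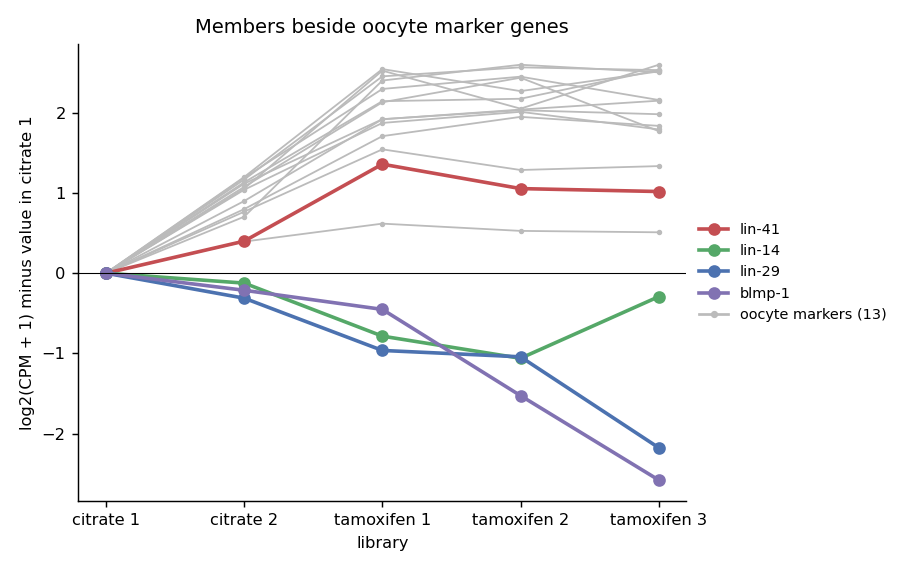
log2(CPM + 1) in each library minus its value in citrate replicate 1, for *lin-41*, *lin-14*, *lin-29* and *blmp-1* (coloured) and the 13 oocyte markers (grey). Lines only join the values of a gene. *lin-41* is above 0 in every other library, as the oocyte markers are, and lies below most of them, while *lin-14*, *lin-29* and *blmp-1* are below 0 throughout.

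Other parts of the pathway were described by lists. The microRNA genes *lin-4*, *let-7*, *mir-48*, *mir-84* and *mir-241* were not matched and are not analysed here. Of 8 genes for microRNA machinery, all tested, 2 passed the threshold and both were higher, where 4.66% of all tested genes were called higher. Their median log2 fold change was 0.76, against 0.24 for all tested genes. *pup-2*, which encodes a poly(U) polymerase, rose from 15.3 and 21.2 CPM in citrate to 80.3, 94.3 and 43.8 in tamoxifen, or by 1.88 in log2 (SE 0.35, adjusted p = 0.00468 in limma). That call held in 12 of 16 other fits. It was lost without tamoxifen replicate 1 (1.78, adjusted p = 0.0228 in limma), where 0.264% of all tested genes were called higher. Without citrate replicate 1 the change was 1.66. *dcr-1*, the Dicer gene, rose from 3.92 and 3.13 CPM to 12.2, 12 and 11.2, or by 1.51 in log2 (SE 0.35, adjusted p = 0.00984 in limma). *dcr-1* was under 5 CPM in both citrate libraries and entered the test only through tamoxifen, so its higher tamoxifen values are a description. Its call held in 2 of 15 other fits and was lost without each of the 5 libraries in turn. Without a tamoxifen library the adjusted p was 0.0171 to 0.0281 in limma, in fits that called 0.264% to 3.52% of all tested genes higher. The change of *dcr-1* stayed above 0 in all of these fits. For the Argonaute genes that carry microRNAs, *alg-1* had 180 and 129 CPM in citrate and 91.7 to 126 in tamoxifen (log2 fold change -0.45, adjusted p = 0.23 in limma), and *alg-2* had 23.8 and 35.5 CPM in citrate and 46.6 to 60.3 in tamoxifen (0.84, adjusted p = 0.0497 in limma). Neither passed.

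Of 19 other timing regulators, 15 were tested and 1 passed, *lep-5*, which was lower, as were 2.76% of all tested genes. This long non-coding RNA, which acts on developmental timing together with the Makorin protein LEP-2, lies on chromosome X from 12652591 to 12653520. It fell from 492 and 337 CPM in citrate to 148, 119 and 153 in tamoxifen. The log2 fold change was -1.54 (SE 0.27, adjusted p = 0.00353 in limma), and it passed in 12 of 16 other fits. It did not pass without tamoxifen replicate 1, at -1.59 (adjusted p = 0.0156 in limma), where 0.769% of all tested genes were called lower. Without citrate replicate 1 the change was -1.27. Of the controls, citrate replicate 2 had the lower *lep-5* level. Its partner *lep-2* was below the level tested, with 1.32 and 0.755 CPM in citrate and 2.30 to 4.49 in tamoxifen. The list's median log2 fold change was 0.16, with 8 genes above 0 and 7 below.

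The clock-related members of that list gave smaller differences. The casein kinase gene *kin-20*, the worm relative of fly doubletime, had 49.6 and 48.3 CPM in citrate and 32.5, 48.4 and 33.7 in tamoxifen (log2 fold change -0.37, adjusted p = 0.35 in limma). *nhr-23*, a ROR-type nuclear receptor gene needed for molting, had 36.8 and 45.9 CPM in citrate and 68.0, 72.6 and 41.5 in tamoxifen (0.51, adjusted p = 0.227 in limma). *nhr-85*, a Rev-Erb-type receptor gene, had 8.63 and 5.60 CPM in citrate and 3.13, 2.12 and 2.81 in tamoxifen, with a log2 fold change of -1.12 (SE 0.41, adjusted p = 0.0531 in limma). *nhr-85* was under 5 CPM in all 3 tamoxifen libraries and entered the test only through citrate, so its lower tamoxifen values are a description. The nuclear receptor gene *daf-12* had 13.7 and 14.6 CPM in citrate and 9.54 to 13.1 in tamoxifen (-0.30, adjusted p = 0.493 in limma). None of these 4 passed.

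Downstream of LIN-29, 4 of 6 adult cuticle genes were tested and 1 passed, the collagen gene *col-7*, where 2.76% of all tested genes were called lower. It fell from 5.93 and 5.17 CPM in citrate to 0.854, 0.470 and 0.561 in tamoxifen (3, 18 and 1 tags). The log2 fold change was -2.01 (SE 0.47, adjusted p = 0.00989 in limma), and it passed in 6 of 15 other fits. Its call was lost without each tamoxifen library in turn (adjusted p = 0.013 to 0.0164 in limma). Those fits called 0.769% to 1.81% of all tested genes lower. Over the fits without 1 of the 5 libraries the change ran from -2.11 to -1.93. *col-7* entered the test only through its citrate values, so its lower tamoxifen values are a description. *col-19*, the collagen gene most used as a marker of the adult skin, had 671 and 883 CPM in citrate and 851, 734 and 999 in tamoxifen. The groups overlapped, and the log2 fold change of 0.15 (adjusted p = 0.634 in limma) turned to -0.03 after median-of-ratios scaling. The male-specific targets of LIN-41, *mab-3* and *dmd-3*, were at most 0.539 CPM in any library and were not tested. Among skin markers, *egl-18*, a GATA factor gene of seam cells, rose from 5.88 and 15.2 CPM to 23.3, 45.1 and 38.2 (log2 fold change 1.74, adjusted p = 0.00955 in limma), and the other 3 tested skin markers did not pass. *egl-18* itself passed in 5 of 16 other fits. It did not pass without each tamoxifen library in turn (1.55 to 2.01, adjusted p = 0.018 to 0.0212 in limma). Those fits called 0.264% to 3.52% of all tested genes higher. Without citrate replicate 1 the change was 1.12, and without citrate replicate 2 it was 2.36.

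**Figure D5:**
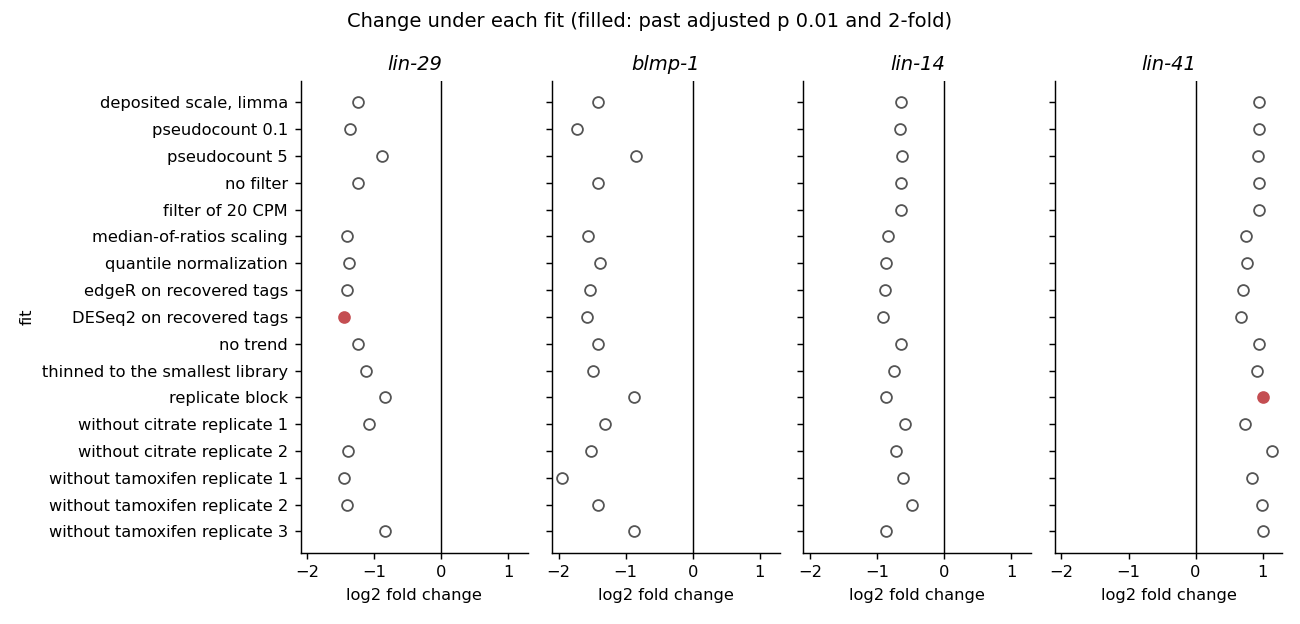
log2 fold change, tamoxifen minus citrate, of *lin-29*, *blmp-1*, *lin-14* and *lin-41* under each fit, with filled points where the gene passed an adjusted p of 0.01 and 2-fold. The sign of all 4 genes is the same in each fit in which they were tested. These are the genes whose groups did not overlap, so leaving out a library could not turn their sign. *lin-29* passes with DESeq2 and *lin-41* with the replicate block.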

How the data were processed

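Cel-seq2 libraries of whole animals were grouped from the sample titles into citrate (n = 2) and tamoxifen (n = 3). The submitters' processing notes name Trimmomatic 0.32 and STAR, and the study names a DolphinNext pipeline. The genome build and the use of strand or molecular identifiers are not given in the sources used here. The authors deposited values they call TPM, which have the same sum in each library, hold no gene length and were treated as CPM. Within a tolerance of 0.05 of a tag, 100% of values were whole tags, from 1782371 to 38276144 tags per library. Of 25393 IDs, 25064 had a symbol.

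The test was limma 3.58.1 (R 4.3.3, mean-variance trend) on log2(CPM + 1), a scale that understates the change of low genes, and took in genes that reached 5 CPM in 2 or more libraries. A call required more than 2-fold at an adjusted p below 0.01. The study used DESeq2, run here (1.42.0) with edgeR 4.0.16 (quasi-likelihood) on the recovered tags as alternatives, beside other pseudocounts, filters, scalings, no trend, thinning, a replicate block and each library left out. Scripts were tested on simulated data. Members and lists were chosen with earlier results of these data known. Named were all 9 members, fixed pathway genes, list genes past the threshold (the 4 largest where over 6 passed) and the 2 nearest profiles per tested member. The yolk list had 4 such genes, *vit-1*, *vit-3*, *vit-4* and *vit-5*, all higher, with log2 fold changes of 1.34, 1.96, 2.04 and 1.43. Of all tested genes 4.66% were called higher. In the same order, these yolk genes passed in 6, 9, 13 and 10 of 16 other fits. No sequences are printed.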

Additional observations from a re-analysis of the deposited data

How the results depend on the processing

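Of the tested timing genes, 0 were called higher and 0 lower. The count of those lower was 1 with DESeq2 and 1 at an adjusted p of 0.05, *lin-29* both times, and the count of those higher was 1 with the replicate block, *lin-41*. Across the fits that each left out 1 library, both counts ran from 0 to 0. The replicate numbers come from the titles, and the deviations of same-numbered libraries had a correlation over genes of 0.12 (replicate 1) and 0.32 (replicate 2). The block leaves tamoxifen replicate 3 no part in the estimate, and its log2 fold changes equal those without that library. Signs turned in genes that had not passed. *mab-10* was at 0.020 with the block and ran from -0.14 to 0.020 over the fits with a library left out. Over the same fits *hbl-1* ran from -0.29 to 0.12 (above 0 without citrate replicate 2 and, at 0.0026, without tamoxifen replicate 2), *lin-28* from -0.26 to 0.0091 and *lin-42* from -1.74 to 0.055, both above 0 without citrate replicate 1. *col-19* ran from -0.048 to 0.35 and was at -0.033 after median-of-ratios scaling, -0.088 in edgeR and -0.12 in DESeq2. The cause was not tested.

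Over all tested genes, 388 were higher and 230 lower. After median-of-ratios scaling, which moved the median log2 fold change by -0.18, they were 1.71% and 3.24% of those tested (270 lower), after quantile normalization 221 and 369, with edgeR 148 and 426, with DESeq2 459 and 780, without a trend 31 and 46, after thinning 209 and 139, with the replicate block 1044 and 599, and with the limit on p raised to 0.05 1333 and 678. Without a filter they were 0 and 0 (4742 at an unadjusted p under 0.05). Without citrate replicate 1 they were 4 and 1, the lowest of the fits with a library left out, and the highest were 541 higher, without citrate replicate 2, and 157 lower in the same fit. In fits with 1 citrate library its spread is assumed to be that of tamoxifen. Counts of a few tags limit the precision of *lin-46* and *hbl-1* in tamoxifen replicates 1 and 3 and of the low values of *blmp-1* and *lin-29* in tamoxifen replicate 3.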
